A study of Mus musculus with 8 samples.

Results

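The chemokine and chemoattractant receptors of leukocytes were examined in brown adipose tissue (BAT) as a set of 9 genes, Ccr1, Ccr2, Cx3cr1, Cxcr4, Ackr3, C5ar1, Fpr1, Ccrl2 and Cmklr1, of the 31053 genes in the deposited count table. They were taken as a named group of receptors, with earlier results of these data known, and 8 of the 9 had at least 1 count in these mice. Most of these receptors are G protein-coupled proteins on the surface of leukocytes, and they read gradients of chemokines, complement fragments, formylated peptides or chemerin and steer the cell towards the source. In adipose tissue they are best known for bringing monocytes from blood, which become macrophages there. A smaller group, the atypical receptors, bind the same ligands but do not couple to G proteins, and so clear or present a ligand rather than move a cell.

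The RNA came from BAT of 8 male mice of the C57BL6/J strain, 4 WT and 4 Ucp1Δ/Δ, all given as 10 weeks old in the labels, although the legend in the study gives a younger age. Ucp1Δ/Δ mice, labelled ATGLKO, carry floxed Pnpla2 alleles and a Cre recombinase under the Ucp1 promoter, so Pnpla2, the gene of the lipase ATGL, is deleted in thermogenic adipocytes and not, by design, in leukocytes. Whether the WT mice carry the floxed alleles is not given in the sources used here. The labels name the stromal vascular fraction as well as BAT, yet adipocyte transcripts were abundant in WT mice, with Ucp1 at 2719 CPM, the count scaled by effective library size, and Cidea at 5948 CPM, so the libraries were read as whole tissue.

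Total counts ranged from 2017697 to 3115956 per mouse, and between 38.4% and 45.6% of them came from mitochondrially encoded genes. With effective library sizes 3 counts equal between 0.933 and 1.53 CPM, and several of the receptors lay near that floor. This floor and the counting intervals cover counting error only. Pnpla2 fell from 2913 ± 191 CPM in WT mice to 474 ± 59.2 CPM (mean ± SD over 4 mice each) in Ucp1Δ/Δ mice, so the labels hold. Of 8930 genes with enough counts to be tested with edgeR's quasi-likelihood test, 13.3% were higher and 7.63% lower in Ucp1Δ/Δ mice at an adjusted p under 0.05.

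Receptor transcripts drew more counts in Ucp1Δ/Δ mice than in WT mice. The mean level was higher in Ucp1Δ/Δ than in WT mice for 8 of the 9 genes, and Fpr1 had no count in any mouse. No share of all genes with a higher mean is given here. The direction says little for Ccr1, with 4 counts over the 8 mice, and Ccrl2, with 29. The 9 genes together drew 40, 50, 48 and 47 counts in WT mice 1 to 4, against 149, 292, 172 and 144 counts in Ucp1Δ/Δ mice 1 to 4. Summed over the genes, this was 16 to 23.8 CPM in WT mice and 52.7 to 90.9 CPM in Ucp1Δ/Δ mice. In bulk tissue, fewer cells of a type and less RNA per cell cannot be told apart, and the same holds for more.

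Only Ccr2, Cmklr1 and Ackr3 passed the filter on low counts. Ccr2 and Cmklr1 were called higher by edgeR at an adjusted p under 0.05. This makes 2 of the 3 tested called higher and 0 called lower, against 13.3% and 7.63% of all genes tested. The other 6 receptors could not be called. At an unadjusted p under 0.05 the edgeR counts were 3 and 0. No share of all genes at that threshold is given here, so these counts have no background to be set against. DESeq2's Wald test, which called 10.3% of its tested genes higher, called Ccr2, Cxcr4 and C5ar1 higher and 0 of the receptors lower. The filter asks for enough counts in 4 mice, so a gene can pass on the Ucp1Δ/Δ mice alone, and the genes that passed do not stand for the other 6. Ccr1, Cx3cr1, Cxcr4, C5ar1 and Ccrl2 had counts but were removed. They are given below by their counts, by a two-sided exact permutation test over the mice, and by a fit that kept every gene with at least 1 count in any mouse, which called 9.81% of 16617 genes higher and 5 of the receptors: Ccr2, Cxcr4, Ackr3, C5ar1 and Cmklr1.

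**Figure D1:**
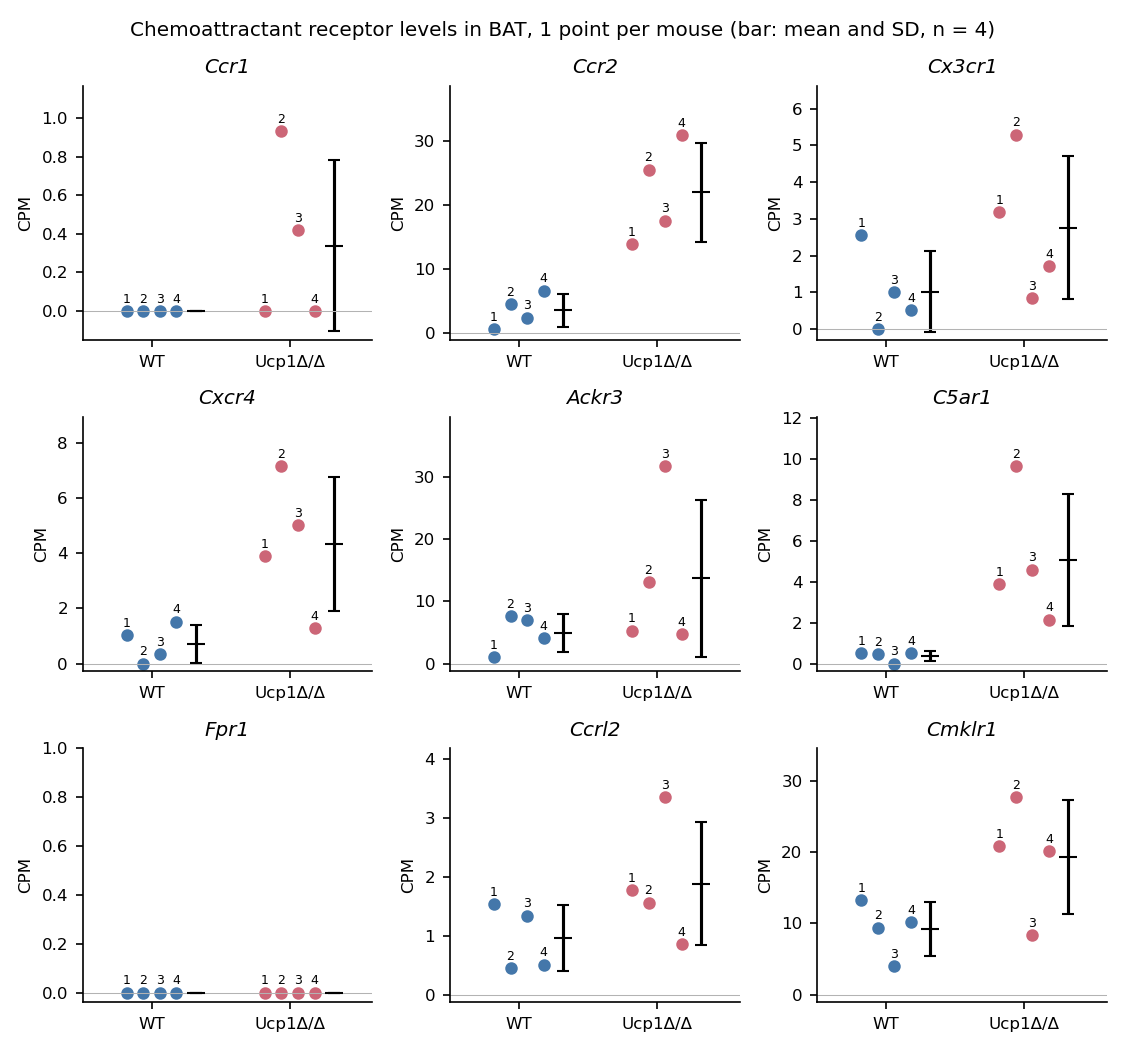
Level of each of the 9 receptors in CPM (vertical axis, linear, with its own range in each panel) in WT mice (blue) and Ucp1Δ/Δ mice (red). Each point is 1 mouse with its replicate number, and the black bar is the mean with the SD over 4 mice. Ccr2 and C5ar1 did not overlap between genotypes, Ackr3 reached 31.8 CPM in 1 Ucp1Δ/Δ mouse, and Fpr1 was at 0 throughout.

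Ccr2 (ENSMUSG00000049103) encodes the receptor for Ccl2 and related chemokines that brings classical monocytes out of the marrow and into tissue. The gene is protein coding and maps to chromosome 9, plus strand, of mm10 from 124101950 to 124113557, with no exon of another gene over its own. Its raw counts were 1, 10, 7 and 13 in WT mice 1 to 4, against 39, 82, 42 and 72 in Ucp1Δ/Δ mice 1 to 4. As levels these were 0.510, 4.48, 2.34 and 6.59 CPM in WT mice and 13.8, 25.5, 17.6 and 30.9 CPM in Ucp1Δ/Δ mice. The lowest Ucp1Δ/Δ mouse stood above the highest WT mouse, a separation found in 14.4% of all genes tested, and WT replicate 1 was low with its single count. The level rose from 3.48 ± 2.63 CPM to 21.9 ± 7.72 CPM (mean ± SD over 4 mice each), for a log2FC of 2.66 ± 0.42 (standard error) with an adjusted p of 0.000286 by the edgeR test after Benjamini-Hochberg adjustment. Leaving out any 1 mouse put the log2FC of Ccr2 between 2.34 and 3.1 and the call was kept.

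Cx3cr1 (ENSMUSG00000052336), the receptor for fractalkine on patrolling monocytes and many resident macrophages, had few counts. It lies on the minus strand of chromosome 9 from 119901616 to 120069879, and 1 of its exons overlaps the antisense gene Gm33858, which had 0 counts. The counts of Cx3cr1 were 5, 0, 3 and 1 in WT mice and 9, 17, 2 and 4 in Ucp1Δ/Δ mice, so the genotypes overlapped. The mean level was 1.01 ± 1.1 CPM (SD, n = 4) in WT and 2.76 ± 1.95 CPM (SD, n = 4) in Ucp1Δ/Δ mice, a difference that did not exceed the spread between mice (two-sided exact permutation test, p = 0.171). In the fit with every counted gene its log2FC was 1.46 (adjusted p = 0.127 by edgeR).

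The study gated monocytes in flow cytometry by Ly6C and the proteins of Ccr2 and Cx3cr1, so the ratio of their transcripts was computed within each mouse, with 0.5 added to each count. It was 0.273, 21.0, 2.14 and 9.0 in WT mice 1 to 4, against 4.16, 4.71, 17.0 and 16.1 in Ucp1Δ/Δ mice 1 to 4. WT mice spanned a wider range than Ucp1Δ/Δ mice at both ends. The log2 ratio was 1.40 higher in Ucp1Δ/Δ mice, which the WT spread covered (two-sided exact permutation test, p = 0.429). Leaving out 1 mouse put this difference between 0.21, without WT replicate 1, and 2.30, without WT replicate 2.

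Ccr1 (ENSMUSG00000025804), a receptor for several inflammatory CC chemokines on monocytes and neutrophils, lies near Ccr2 on chromosome 9 from 123962124 to 123968692 on the minus strand. It had 0 counts in every WT mouse and 0, 3, 1 and 0 counts in Ucp1Δ/Δ replicates 1 to 4. Both genotypes were at or under the floor of 3 counts per mouse, and no fold is given.

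The protein-coding genes that start within 250 kb of Ccr2 are mostly chemokine receptors with similar sequences, and those reported here are as follows. Ccr3, the eotaxin receptor, had 0 counts in all WT mice and 3, 2, 1 and 1 in Ucp1Δ/Δ mice. Xcr1 had 0, 1, 0 and 0 counts in WT and 2, 3, 6 and 1 in Ucp1Δ/Δ mice, and Ccr1l1 had none. The neighbour 2010315B03Rik had enough counts to be tested and was not called, with a log2FC of -0.54 (adjusted p = 0.331 by edgeR). Reads that match Ccr2 and a similar neighbour could be split between them, so these counts are uncertain to that extent.

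Cxcr4 (ENSMUSG00000045382) is the signalling receptor for Cxcl12, which holds leukocytes in marrow and tissue niches, and Ackr3 is the atypical receptor that takes up the same ligand. Cxcr4 lies on the minus strand of chromosome 1 of mm10 from 128588199 to 128592293. Its counts were 2, 0, 1 and 3 in WT mice 1 to 4, against 11, 23, 12 and 3 in Ucp1Δ/Δ mice 1 to 4. The level was 0.718 ± 0.682 CPM (SD, n = 4) in WT mice and 4.34 ± 2.44 CPM (SD, n = 4) in Ucp1Δ/Δ mice. Ucp1Δ/Δ replicate 4, at 1.29 CPM, lay within the WT range, and the other Ucp1Δ/Δ mice lay above it (two-sided exact permutation test, p = 0.0571). From 6 counts in WT and 49 in Ucp1Δ/Δ mice, the ratio of counts scaled by library size was 6.95 (95% counting interval 2.98 to 19.9), and the fit with every counted gene gave a log2FC of 2.62 (adjusted p = 0.000812 by edgeR).

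Ackr3 (ENSMUSG00000044337), on the plus strand of chromosome 1 from 90203980 to 90216751, varied widely between mice of one genotype. Its raw counts were 2, 17, 21 and 8 in WT mice and 15, 42, 76 and 11 in Ucp1Δ/Δ mice, or 1.02, 7.62, 7.01 and 4.05 CPM against 5.31, 13.1, 31.8 and 4.72 CPM. Ucp1Δ/Δ replicate 3 alone was far above the rest, and 2 of the 4 Ucp1Δ/Δ mice lay within the WT range. The log2FC of 1.40 ± 0.57 (standard error) with an adjusted p of 0.0992 by edgeR did not pass the threshold. Without Ucp1Δ/Δ replicate 3 the log2FC was 0.63 (adjusted p = 0.431 by edgeR). Keeping every counted gene in the fit gave a log2FC of 1.37 ± 0.34 (standard error) that did pass (adjusted p = 0.000827 by edgeR). The standard error was smaller in that fit for Ccr2 and Cmklr1 too, a limit on its adjusted p for each receptor. A block for the replicate number also called Ackr3 (adjusted p = 0.0201 by edgeR), while its level gave p = 0.229 (two-sided exact permutation test). The call of Ackr3 thus depended on the fit.

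C5ar1 (ENSMUSG00000049130) encodes the receptor for the complement fragment C5a, which attracts and activates neutrophils, monocytes and macrophages. It lies on the minus strand of chromosome 7 of mm10 from 16246743 to 16259540. It had 1, 1, 0 and 1 counts in WT mice 1 to 4, against 11, 31, 11 and 5 counts in Ucp1Δ/Δ mice 1 to 4. The level was 0.366 ± 0.246 CPM (SD, n = 4) in WT mice, under the floor, and 5.07 ± 3.22 CPM (SD, n = 4) in Ucp1Δ/Δ mice. The genotypes did not overlap (two-sided exact permutation test, p = 0.0286, the lowest value this design allows). Like the other permutation p values of receptor levels, it was not adjusted over the receptors. The 14.4% of tested genes with such a separation does not cover C5ar1, which was not tested. The ratio of scaled counts was 16.5, with a 95% counting interval of 5.36 to 82.1 that is wide because the WT mice had 3 counts in all. With every counted gene in the fit, C5ar1 had a log2FC of 3.75 (adjusted p = 3.71e-06 by edgeR), and DESeq2's Wald test gave an adjusted p of 0.00162.

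Fpr1 (ENSMUSG00000045551), the receptor for formylated peptides of bacteria and mitochondria on neutrophils and monocytes, had 0 counts in each of the 8 mice. It lies on the minus strand of chromosome 17 from 17876471 to 17883940. A count of 0 allows a level of up to 0.933 to 1.53 CPM per mouse, and within that bound no difference was detectable at this depth.

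Cmklr1 (ENSMUSG00000042190) is the signalling receptor for chemerin and is carried by macrophages, dendritic cells and adipocytes. It lies on the minus strand of chromosome 5 of mm10 from 113612354 to 113650426. The raw counts were 26, 21, 12 and 20 in WT mice 1 to 4, against 59, 89, 20 and 47 in Ucp1Δ/Δ mice 1 to 4. The levels were 13.3, 9.41, 4.01 and 10.1 CPM in WT mice and 20.9, 27.7, 8.36 and 20.2 CPM in Ucp1Δ/Δ mice. Replicate 3 was the lowest mouse of each genotype, and Ucp1Δ/Δ replicate 3 lay within the WT range while the other Ucp1Δ/Δ mice lay above it. The mean rose from 9.20 ± 3.84 CPM to 19.3 ± 8.03 CPM (mean ± SD over 4 mice each), for a log2FC of 1.12 ± 0.36 (standard error) with an adjusted p of 0.0391 by edgeR's quasi-likelihood test.

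The call of Cmklr1 was close to the threshold. It was lost when WT replicate 2 or 3 or Ucp1Δ/Δ replicate 1, 2 or 4 was left out, with log2FC of 1.15, 0.82, 1.09, 0.90 and 1.11 and adjusted p of 0.0547, 0.127, 0.0836, 0.149 and 0.0843 by edgeR. DESeq2's Wald test gave a log2FC of 1.06 (adjusted p = 0.0543). The direction was the same in each of these fits.

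Ccrl2 (ENSMUSG00000043953), an atypical receptor that binds chemerin and presents it to Cmklr1 without signalling, lies on the minus strand of chromosome 9 from 111054486 to 111057519. It had 3, 1, 4 and 1 counts in WT mice and 5, 5, 8 and 2 counts in Ucp1Δ/Δ mice. The ratio of scaled counts was 1.89 (95% counting interval 0.823 to 4.72). The level was 0.955 ± 0.558 CPM (SD, n = 4) and 1.88 ± 1.05 CPM (SD, n = 4), and the difference did not exceed the spread between mice (two-sided exact permutation test, p = 0.143).

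The promoters of these genes were compared because several of their transcripts were higher in the same mice. RefSeq windows of GRCm38.p6 that run from 250 bases before to 50 bases after each annotated start were found for all 9 genes, 11 windows in all, and were searched on both strands. The ETS core AGGAAGT, bound by the myeloid factor PU.1, was found in the C5ar1 window alone, 2 times, against 9.35% of all 32817 windows. The AP-1 motif TGAGTCA, the C/EBP motif TTGCGCAA and the 10-letter NF-kB motif of the kappa light chain enhancer were in none of the 11 windows, against 5.20%, 0.183% and 0.155% of all windows. The TATA box TATAAA was in the windows of Cxcr4, Ackr3 and Fpr1, against 13.6% of all windows. A match is a run of letters and not a measured binding site, and no match says only that these letters are not in the window.

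The bases before the start are printed for C5ar1, the gene with the ETS core, for Cxcr4, with the TATA box near its start, and for Cmklr1, which held none of these motifs. All are read 5′ to 3′ on the minus strand of the gene, and capitals mark a motif found. They come from chr7:16259339-16259512 for C5ar1, chr1:128592300-128592549 for Cxcr4 and chr5:113643604-113643853 for Cmklr1. The start is that of RefSeq, and the stretches of C5ar1 and Cmklr1 lie inside the genes as GENCODE draws them. The window of Ccr2 lies almost wholly within an annotated exon and is not printed.
C5ar1: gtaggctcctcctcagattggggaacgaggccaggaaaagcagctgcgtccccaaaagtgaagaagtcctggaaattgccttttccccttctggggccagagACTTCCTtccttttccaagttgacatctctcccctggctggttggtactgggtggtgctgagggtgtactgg
Cxcr4: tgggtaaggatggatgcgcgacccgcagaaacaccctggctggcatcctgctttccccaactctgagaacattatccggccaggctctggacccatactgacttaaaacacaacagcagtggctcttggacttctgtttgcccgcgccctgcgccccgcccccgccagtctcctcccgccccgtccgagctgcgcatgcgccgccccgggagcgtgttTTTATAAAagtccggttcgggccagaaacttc
Cmklr1: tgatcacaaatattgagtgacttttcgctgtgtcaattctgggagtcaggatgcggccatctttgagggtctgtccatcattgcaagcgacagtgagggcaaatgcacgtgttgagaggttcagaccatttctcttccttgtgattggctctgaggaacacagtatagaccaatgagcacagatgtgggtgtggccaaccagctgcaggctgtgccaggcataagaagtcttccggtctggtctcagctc
In C5ar1 the capitals are the ETS core as it reads on this strand. In Cxcr4 the capitals hold the TATA box on both strands, which overlap. The other ETS match of C5ar1 lies in the part of its window that is not printed.

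The other receptors of the same families were examined as 28 genes. Of these, 9 had 0 counts in every mouse, 18 had a higher mean level in Ucp1Δ/Δ mice and 1, Ccr10, had a lower one. No share of all genes is given for this direction, and most of the 28 had too few counts to be tested. Of the 3 that were tested, 2 were higher and 0 lower, against 13.3% and 7.63% of all genes tested. C3ar1, the receptor for the complement fragment C3a, had 3, 16, 11 and 14 counts in WT mice and 138, 283, 79 and 149 in Ucp1Δ/Δ mice, a log2FC of 3.59 ± 0.37 (standard error) with an adjusted p of 7.05e-06 by edgeR. Ptafr, the receptor for platelet-activating factor, had a log2FC of 3.69 ± 0.62 (standard error) with an adjusted p of 0.000462 by edgeR, from 1, 2, 2 and 1 counts to 18, 60, 10 and 14. S1pr1, a receptor for sphingosine-1-phosphate that endothelium also carries, was not called, with a log2FC of 0.39 (adjusted p = 0.310 by edgeR). Every Ucp1Δ/Δ mouse exceeded every WT mouse for Ccr2, C3ar1 and Ptafr, which makes 3 of the 6 tested receptors, against 14.4% of all genes tested. The same held for 4 receptors that were not tested, C5ar1, Ccr3, C5ar2 and Ltb4r1, to which that share does not apply. A receptor could pass the filter on the Ucp1Δ/Δ mice alone, which favours this separation among tested genes. The 3 of 6 therefore do not stand for the other receptors.

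**Figure D2:**
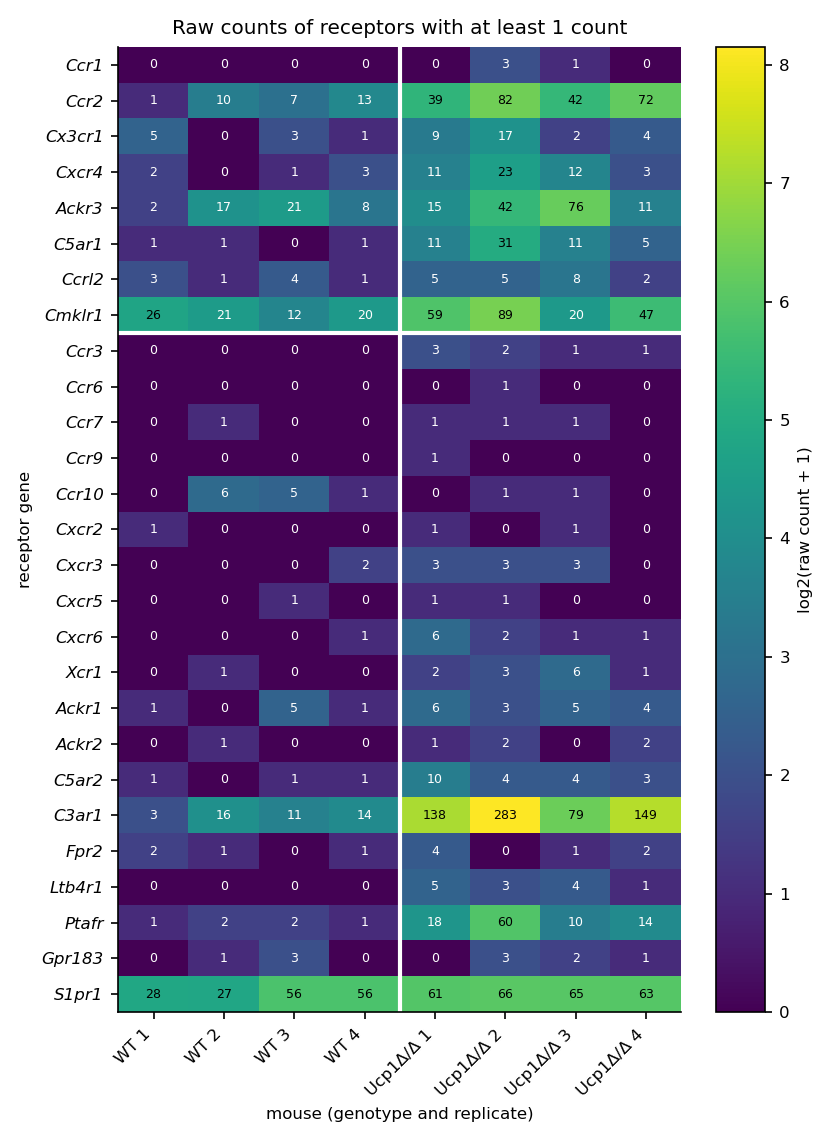
Raw counts of the 27 receptors with at least 1 count, with 1 row per gene and 1 column per mouse, and colour for the log2 of the count plus 1. The white lines part the 8 counted genes of the set from the other receptors and WT from Ucp1Δ/Δ mice, and C3ar1 had at most 16 counts in a WT mouse and at least 79 in an Ucp1Δ/Δ mouse.

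Ligands of the 9 receptors made a list of 17 genes. Of these, 16 were matched in the table and 7 were tested. Of the 7, 6 were higher in Ucp1Δ/Δ mice and 0 lower, against 13.3% and 7.63% of all genes tested. The median log2FC was 2.03, against -0.01 over all genes tested. As with the receptors, a ligand could pass the filter on the Ucp1Δ/Δ mice alone, so these values do not stand for the list. Rarres2, which encodes chemerin, the ligand of Cmklr1 and Ccrl2, had levels of 37.2, 52.9, 41.4 and 38.0 CPM in WT mice and 186, 203, 163 and 139 CPM in Ucp1Δ/Δ mice. It rose with no overlap and little spread, with a log2FC of 2.03 ± 0.19 (standard error) with an adjusted p of 2.65e-06 by edgeR. Cxcl12, the ligand of Cxcr4 and Ackr3, rose less, from 18.7 ± 3.54 CPM to 29.2 ± 2.66 CPM (mean ± SD over 4 mice each), for a log2FC of 0.65 ± 0.20 (standard error) with an adjusted p of 0.0277 by edgeR. In the fit with every counted gene the log2FC of Cxcl12 was 0.62 and was not called (adjusted p = 0.0509 by edgeR). Anxa1, a ligand of formyl peptide receptors, had a log2FC of 2.74 (adjusted p = 0.000550 by edgeR), although Fpr1 itself was not counted. The chemokines Ccl6 and Ccl9, which act through Ccr1, had log2FC of 3.83 and 4.16, while Ccr1 stayed at or under 3 counts. Mif, which can bind Cxcr4, had a log2FC of 0.61 (adjusted p = 0.0107 by edgeR), and Ccl5 had one of 1.34 that was not called (adjusted p = 0.0648 by edgeR).

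Genes that carry the signal inside the cell were examined as a list of 30, of which 19 were tested. Of the 19, 8 were higher and 2 lower in Ucp1Δ/Δ mice, against 13.3% and 7.63% of all genes tested. The median log2FC was 0.29, against -0.01 over all genes tested. Here too a gene could pass the filter on the Ucp1Δ/Δ mice alone. The called genes include ones best known from leukocytes. Dock2, the exchange factor that activates Rac in leukocytes, had a log2FC of 2.10 ± 0.32 (standard error) with an adjusted p of 0.000247 by edgeR, and Rac2, the Rac of blood cells, one of 2.0 ± 0.31 (standard error) with an adjusted p of 0.000255 by edgeR. Fermt3, which activates integrins in blood cells, had a log2FC of 3.38, and Rgs10, which speeds the switching off of G proteins, one of 2.44. The genes that fell were Rgs2, a regulator of G protein signalling found in many tissues, with a log2FC of -1.30, and Gnb2, a G protein beta subunit, with one of -0.93. Rgs2 stood at 1589 ± 195 CPM (SD, n = 4) in WT and 646 ± 130 CPM (SD, n = 4) in Ucp1Δ/Δ mice. Rgs1, which is induced in activated leukocytes, was not tested, with 0 counts in all WT mice and 17, 49, 7 and 14 counts in Ucp1Δ/Δ mice.

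**Figure D3:**
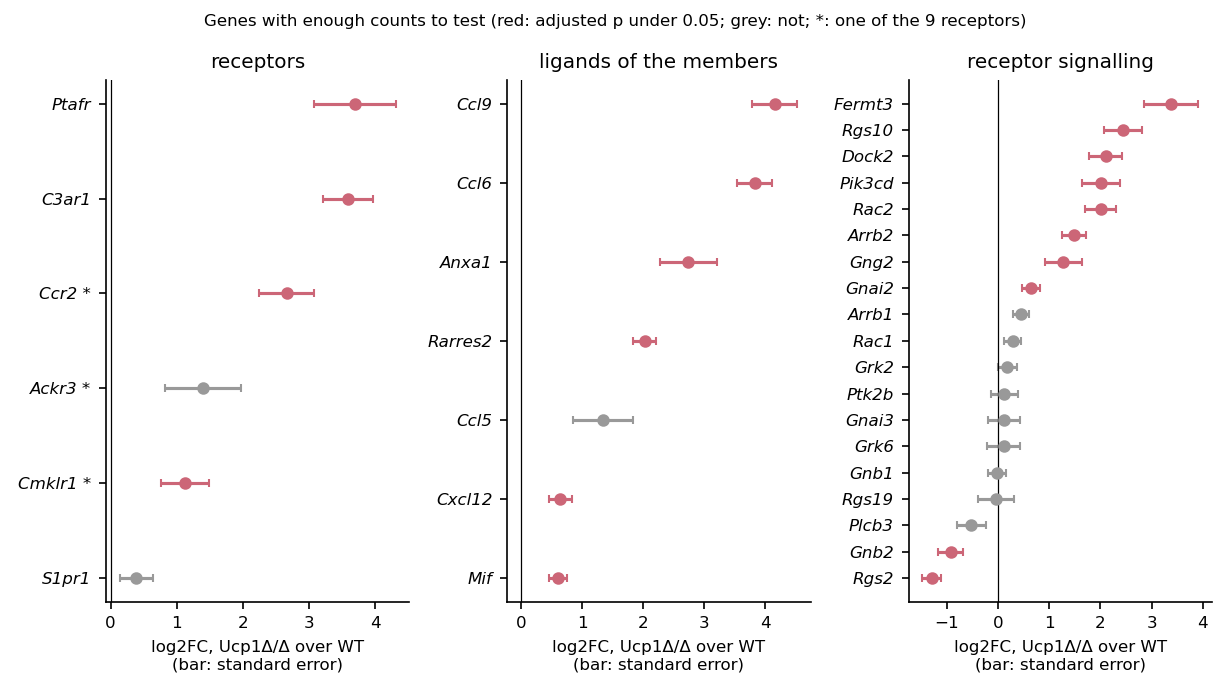
The log2FC of Ucp1Δ/Δ over WT mice (horizontal axis, bar: standard error) for the tested receptors, ligands and signalling genes. Red marks an adjusted p under 0.05 by edgeR, grey the rest, and an asterisk 1 of the 9 receptors. The tested receptors all lie to the right of 0, and Rgs2 and Gnb2 are the red points to its left.

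Markers of several cell types also differed between the genotypes, some higher and some lower, and their part in the results was not tested. Of 7 macrophage markers, 6 were tested and 5 were higher, and their summed level was 71.8 to 96.4 CPM in WT and 631 to 1022 CPM in Ucp1Δ/Δ mice. Csf1r, the growth factor receptor of macrophages, had a log2FC of 2.83, and the lysosomal marker Cd68 one of 4.64. Ucp1Δ/Δ replicate 2 had the highest macrophage sum and was also the highest mouse for 5 of the receptors. Ccr2 was not 1 of these 5, and without this mouse its log2FC was 2.59 and remained called. Cmklr1, the only tested gene of the 5, was not called without this mouse (log2FC of 0.90, adjusted p = 0.149 by edgeR). At an adjusted p under 0.05 by edgeR, stromal markers were higher in 6 of 6 cases and endothelial markers in 1 of 6. Brown adipocyte markers were lower in 4 of 6, among them Cidea with a log2FC of -1.16. Of all genes tested, 13.3% were higher and 7.63% lower, and the endothelial 1 of 6 is near the share called higher. At an unadjusted p under 0.05, 3 of 6 endothelial markers were higher, with no share of all genes given for that threshold. The endothelial sum was 143 to 178 CPM in WT and 194 to 216 CPM in Ucp1Δ/Δ mice.

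Markers of the other leukocytes that carry these receptors were sparse. Of 6 monocyte markers, 2 were tested and 0 called by edgeR. At an unadjusted p under 0.05, for which no share of all genes is given, 1 was higher. DESeq2 called 1 monocyte marker higher, against 10.3% of all genes it tested. The sum was 10.2 to 14.8 CPM in WT and 11.2 to 35.1 CPM in Ucp1Δ/Δ mice, with Treml4 at 0. It was highest in Ucp1Δ/Δ replicate 3, which was also the highest mouse for Ackr3. Ccr2 did not follow it, with 17.6 CPM in that mouse. The highest level of Ccr2, 30.9 CPM, was in Ucp1Δ/Δ replicate 4, which had the lowest monocyte sum of its genotype at 11.2 CPM. Neutrophil markers summed to 2.03 to 10.3 CPM in WT and 2.15 to 8.84 CPM in Ucp1Δ/Δ mice, and none of the 6 was tested. T and NK cell markers summed to 3.01 to 8.51 CPM and 7.10 to 15.2 CPM, and B cell markers to at most 1.02 and 1.29 CPM, with Cd79a at 0. Of 5 dendritic and 4 mast cell markers, 1 each was tested and not called. Skeletal muscle markers ranged from 14.4 to 1112 CPM in WT and from 46.8 to 1518 CPM in Ucp1Δ/Δ mice, and none of 5 was called by edgeR at an adjusted or unadjusted p under 0.05 or by DESeq2.

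To ask whether the receptors changed in step with macrophage transcripts, each tested receptor was divided by the summed counts of the macrophage markers in the same mouse. This ratio is free of library size and shows unequal change, not which side changed. Ccr2 gave 5.29, 46.7, 32.6 and 77.4 counts per 1000 marker counts in WT mice and 18.8, 25.0, 27.8 and 48.5 in Ucp1Δ/Δ mice. The Ucp1Δ/Δ values lay inside the WT range, and the mean log2 ratio differed by -0.18 (two-sided exact permutation test, p = 0.83). Leaving Lyz2 out of the marker sum turned the difference to 0.33. Leaving out 1 mouse put it between -0.85, without WT replicate 1, and 0.26, without WT replicate 4. The lowest WT value, that of replicate 1, rests on 1 Ccr2 count.

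Cmklr1 gave 138, 98.1, 55.8 and 119 counts per 1000 marker counts in WT mice and 28.5, 27.1, 13.2 and 31.6 in Ucp1Δ/Δ mice. Every Ucp1Δ/Δ mouse lay below every WT mouse, a log2 difference of -2.05 (two-sided exact permutation test, p = 0.0286, adjusted over the 3 receptors p = 0.0857). The adjusted p did not pass the threshold. Ackr3 gave 10.6, 79.4, 97.7 and 47.6 in WT and 7.24, 12.8, 50.3 and 7.41 in Ucp1Δ/Δ mice, with overlap, a log2 difference of -1.79 (two-sided exact permutation test, p = 0.0857, adjusted p = 0.129).

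**Figure D4:**
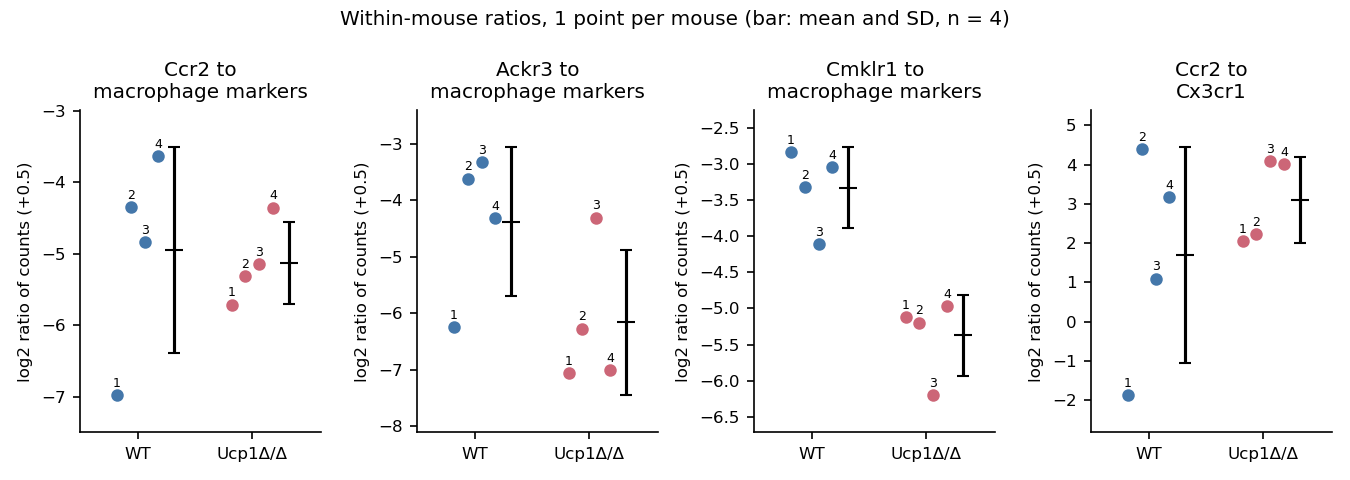
Log2 of within-mouse count ratios (vertical axis, 0.5 added to each count) for Ccr2, Ackr3 and Cmklr1 over the summed macrophage markers and for Ccr2 over Cx3cr1. Each point is 1 mouse with its replicate number, blue for WT and red for Ucp1Δ/Δ, and the bar is the mean with the SD over 4 mice. The 2 genotypes part only for Cmklr1, with a log2 difference of -2.05 between Ucp1Δ/Δ and WT mice.

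The tested genes whose log2 CPM followed the receptors most closely over the 8 mice differed between Ccr2 and Cmklr1. For Ccr2 they were Foxp1, a transcription factor (Pearson r = 0.98), Adamts2, a procollagen protease (r = 0.98), and Trim30d (r = 0.97). For Cmklr1 they were Scara5, a ferritin receptor of stromal cells (r = 0.97), Pdlim7 (r = 0.96) and Aldh1a1, a retinaldehyde dehydrogenase (r = 0.96). These genes were picked from all genes tested for the highest r, the mice share the genotype difference and library scaling, and the values are a description only. With the genotype means removed, r was between 0.88 and 0.96 for the 6 genes.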

How the data were processed

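RNA was extracted from BAT of 4 WT and 4 Ucp1Δ/Δ mice, and a commercial service prepared digital mRNA-seq libraries and sequenced them as single-end reads. In the study's methods, the authors used bbduk for trimming, STAR for alignment to mm10 and HTseq-counts for counting. The submitters' processing notes instead name Trimmomatic, HISAT2 and DESeq2. The strand setting and annotation release are not given in the sources used here. The authors deposited whole-number counts per Ensembl gene without normalization, 1 column per mouse, and these counts were used for every main result. The authors also deposited log2 values, each the log2 of 1 plus the count over a factor for that mouse, and they served 1 alternative.

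Symbols and positions came from GENCODE annotation of mm10, and 30934 of 31053 identifiers had a symbol. The ligand Cxcl11 was not analysed here, and 1 receptor gene is not reported here. The filter on low counts was filterByExpr with default settings, and scaling was by TMM. Genotypes were compared with edgeR 4.0.16 in R 4.3.3 (quasi-likelihood test on genotype alone, Benjamini-Hochberg adjustment over 8930 genes, threshold 0.05). TMM-scaled library sizes gave the CPM, and a prior count of 2 was added for log2 CPM. Exact permutation tests and counting intervals used scipy 1.17.1. With 4 mice against 4, the smallest two-sided p is 0.0286. The tests were checked on simulated counts.

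The members and lists were chosen with earlier results of these data known. The genes named were the 9 receptors, up to 4 higher and 3 lower called genes of each list with the smallest adjusted p, Pnpla2, genes within 250 kb of Ccr2, and the 3 genes most correlated with each of Ccr2 and Cmklr1. Other genes were named after their values were seen, among them S1pr1, Ccr10, Cxcl12, Mif, Ccl5, Rgs1 and Ucp1. No library was treated as a duplicate, since chi-square over its degrees of freedom was 4.69 to 23.2 between mice of a genotype. The labels do not say whether mice were littermates.

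The alternatives tried were scaling by the size factors of DESeq2 or by total counts, testing by other tools (DESeq2 1.42.0, limma 3.58.1 voom with quality weights, and limma trend on the deposited log2 values, which was chosen after seeing the data), other filters, a block for the replicate number, leaving out each mouse, and other denominators for the ratios.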

Additional observations from a re-analysis of the deposited data

Results flagged for a closer look

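In 71 groups of 4 mice, the gap of the highest or lowest mouse to its neighbour was compared with the whole range of its group, and 2 groups passed Dixon's critical value for 4 samples. Chance flags about 1 in 20 groups, which is 3.55 of 71. For C5ar1 in WT mice the share was 0.915, because WT replicate 3 had 0 counts and each other WT mouse had 1, so the gap is a single read. For Tie1, an endothelial receptor kinase, the share was 0.908, since Ucp1Δ/Δ replicate 3 had a log2 CPM of 4.73 and the other Ucp1Δ/Δ mice lay between 4.22 and 4.27.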

How the results depend on the processing

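The direction of Ccr2, Cmklr1 and Ackr3 was kept in each fit that tested them, and Ccr2 was called in each of these. The number of the 9 receptors called, 2 in the fit reported, was 5 if 1 count in any mouse was enough, 1 if every mouse needed 10 counts, 1 with limma trend on the deposited log2 values, and 1 to 2 with a mouse left out. For Cmklr1 the log2FC was 1.06 by the Wald test of DESeq2 and 0.99 by limma trend, not called in either, and 0.82 to 1.37 with a mouse left out. For Ackr3 it was 1.37 under the filter of 1 count in any mouse, now called, and 0.63 to 1.68 with a mouse left out. The Ccr2-to-macrophage ratio turned to 0.33 without Lyz2 and ran from -0.85 to 0.26 with a mouse left out. For C5ar1 the CPM difference ran from 3.18 to 5.68, and with 3 mice against 4 the permutation p cannot go below 0.0571. The cause of each change was not tested, beyond the change in which genes could be tested.

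Same-numbered mice deviated together with correlations of -0.09, -0.20, 0.30 and 0.24. These were not compared with other pairs of mice, so they do not settle whether the replicate numbers pair the mice. With the replicate block, 3 receptors were called, Ackr3 having a log2FC of 1.37 (adjusted p = 0.0201 by edgeR), and for the CPM difference of C5ar1, 4.70, the smallest p of 4 pairs is 0.125.

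With at least 10 counts in every mouse, 1195 genes were called in all (1872 reported, 1345 to 2155 with a mouse left out), 0 of the other receptors, 5 signalling genes, 3 macrophage, 2 endothelial and 3 stromal markers. With at least 1 count in any mouse the counts were 3 other receptors, 16 signalling genes, 2 monocyte markers and 1 each of the T and NK cell, mast cell and skeletal muscle markers. DESeq2's Wald test called 16 signalling genes, 1 monocyte and 1 mast cell marker. With total counts only, 1 monocyte and 3 endothelial markers were called, and with limma voom 1 and 2. With a mouse left out the counts were 1 to 2 other receptors, 0 to 1 monocyte and 0 to 2 endothelial markers. At 2017697 to 3115956 counts per mouse, 6 of the 9 receptors did not pass the filter on low counts.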

Other observations

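Some ligands and regulators with too few counts for the main test were picked out after their values were seen, and their values are given with no explanation. Ccl2, the main ligand of Ccr2, had 0, 0, 0 and 1 counts in WT mice 1 to 4, against 8, 11, 9 and 1 in Ucp1Δ/Δ mice 1 to 4. Ccl7, which also acts through Ccr2, had 0, 0, 0 and 1 counts in WT mice and 4, 11, 1 and 3 in Ucp1Δ/Δ mice. Ccl8 had 4, 1, 0 and 4 counts in WT mice and 16, 23, 10 and 8 in Ucp1Δ/Δ mice, with no overlap. Cx3cl1, the ligand of Cx3cr1, had 4, 5, 2 and 1 counts in WT mice and 6, 8, 9 and 6 in Ucp1Δ/Δ mice. In the fit that kept every gene with a count, Ccl2, Ccl7 and Ccl8 had log2FC of 4.05, 3.42 and 2.28 (adjusted p of 0.000894, 0.0170 and 0.000999 by edgeR), and Cx3cl1 had one of 0.98 that was not called (adjusted p = 0.329 by edgeR).

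Among the untested signalling genes, Rgs18, a regulator of G proteins in blood cells, had 0, 3, 0 and 0 counts in WT mice and 6, 21, 9 and 14 in Ucp1Δ/Δ mice. Pik3r5, a regulatory subunit of the PI3K that chemokine receptors engage, had 0, 0, 1 and 0 counts in WT mice and 6, 15, 1 and 14 in Ucp1Δ/Δ mice. The leukotriene B4 receptor gene Ltb4r1 had 0 counts in each WT mouse and 5, 3, 4 and 1 in Ucp1Δ/Δ mice.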
